A study of Mus musculus with 15 samples.

Results

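The normal lung of this mouse study was 8 arrays of microdissected cells, of 15 arrays in all, and was chosen by sample title alone. Every mouse bore the knock-in K-RasG12V allele together with a color marker that shows its expression, and the lungs were taken 3 months after an adenovirus with Cre recombinase was given. The normal cells were cut by laser capture microdissection from the frozen sections that also gave the hyperplastic lesions. The other 7 arrays were such lesions of about 500 cells each, labelled H1 (n = 3) and H2 (n = 4). All 15 samples therefore came from mice with the same allele and the same infection, and no uninfected or wild-type lung was analysed here. The sources used here do not give how many animals there were, which samples shared one or how many normal cells were captured, so the spread between these arrays may be partly technical and p-values over arrays may be too small.

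The values were log2 signals of Affymetrix probe sets, and 18193 genes were represented by a probe set that names 1 gene only. Where a gene had more than 1 such probe set, the one with the highest mean over the 8 normal arrays stood for it. A log2 difference of 1 is a doubling of signal. Probe sets bind with different strength, so the order of genes by signal is an order of signals and not of transcript numbers. In captured tissue, fewer cells of a type and less RNA per cell cannot be told apart.

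The gas-exchange region of the lung is built from thin alveolar type 1 cells, through which gas passes, and cuboidal type 2 cells, which secrete surfactant and act as progenitors of the epithelium. Capillary endothelium lies under both, held in a sparse matrix laid down by alveolar fibroblasts, and resident macrophages patrol the airspace. Club and ciliated cells line the conducting airways, and the walls of the larger pulmonary veins of the mouse contain cardiac muscle.

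The 8 normal arrays were not alike. The spread of an array, taken as the SD of its log2 signals over all genes, ran from 1.14 on replicate 2 and 1.20 on replicate 8 to 1.67 on replicate 3, with a mean of 1.38 ± 0.18 (SD, n = 8). It ran from 1.31 to 1.77 on the lesion arrays. The number of genes above a log2 signal of 6 followed the same order at its ends, with 1583 on replicate 2, 1844 on replicate 8 and 3390 on replicate 3. The mean signal of 11 hybridisation control probe sets was lowest on replicate 3 (12.07) and reached 13.26 on replicate 4. The 3′ minus 5′ difference of the Actb control probe sets, a measure of RNA integrity, ran from -1.60 on replicate 2 to -0.03. The 3′ signal on replicate 2 was 4.32, near background, so its difference says little about integrity. For the Gapdh control probe sets the difference had the other sign, from 1.55 on replicate 2 to 3.25 on replicate 5. The Gapdh 5′ signal was 4.07 on replicate 2 and 3.95 on replicate 5, near background, so these ends also say little about integrity. Pearson's r between pairs of normal arrays over all genes, which are not independent, ran from 0.517 to 0.929 with a median of 0.819. Many low signals were also exactly equal between genes: on replicate 2, 188 genes had the value 3.99, and 11.7% of genes shared their value with another gene. The part of RNA integrity and of the captured area in the levels below was not tested.

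Of the 4 genes used to check the label, the epithelial markers and the fibroblast marker were well above the median gene, whose mean signal was 4.40, and the endothelial marker was not. Sftpc, surfactant protein C and the defining gene of type 2 cells, had a lowest signal of 4.87, a median of 10.39 and a highest of 13.41. Ager, the receptor for advanced glycation end products, which marks type 1 cells in lung, had a lowest of 4.65, a median of 8.65 and a highest of 11.37. For both genes replicate 2 was lowest and replicate 3 highest. Itga8, the integrin alpha 8 subunit of alveolar fibroblasts and other mesenchymal cells, stayed between 7.36 and 9.07 with a median of 8.27. Pecam1, an adhesion molecule of endothelial cells, had a lowest of 2.77, a median of 4.05 and a highest of 6.63, and passed 6 on replicate 3 only. Pecam1 had 1 probe set, so its low signal was not checked against another. A second probe set of Sftpc had a mean of 9.67 ± 1.93, one of Ager had 5.73 ± 0.89 and one of Itga8 had 5.53 ± 1.23 (SD, n = 8).

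**Figure D1:**
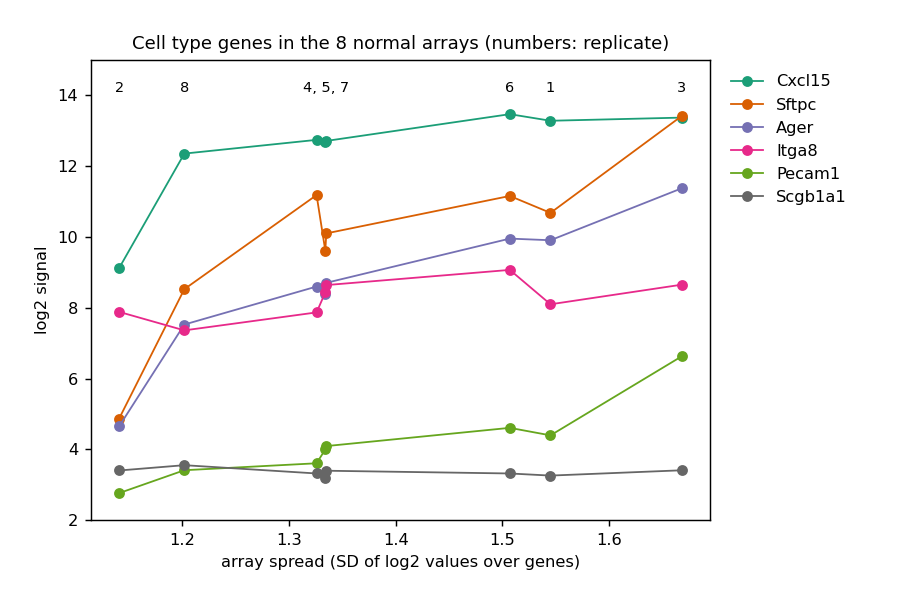
Log2 signal of 6 genes (y axis) on each of the 8 normal arrays against the spread of the array (x axis, SD of log2 signals over genes; replicate numbers above). Sftpc went from 4.87 to 13.41 and Ager from 4.65 to 11.37 over the arrays, while Scgb1a1, the secretoglobin of club cells, stayed between 3.18 and 3.55 and Itga8 between 7.36 and 9.07.

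The regions before 3 genes are shown because Cxcl15 and Sftpa1, both of type 2 cells, had SDs of 1.41 and 2.06 over the arrays and Itga8 had 0.55, although its second probe set had 1.23. The sequences are RefSeq's for GRCm38.p6 and run from 250 bases before the start of transcription to 50 after it, 5′ to 3′ on the gene's own strand. Capitals mark TATAAA, the TATA box, and CTCAAG on either strand (read CTTGAG on the other), which holds the CAAG core bound by NKX2-1, the lung epithelial homeobox factor. The 3 windows lie at chr14:41131538-41131837 on the plus strand (Sftpa1), chr5:90794284-90794583 on the plus strand (Cxcl15) and chr2:12301895-12302194 on the minus strand (Itga8).
Sftpa1: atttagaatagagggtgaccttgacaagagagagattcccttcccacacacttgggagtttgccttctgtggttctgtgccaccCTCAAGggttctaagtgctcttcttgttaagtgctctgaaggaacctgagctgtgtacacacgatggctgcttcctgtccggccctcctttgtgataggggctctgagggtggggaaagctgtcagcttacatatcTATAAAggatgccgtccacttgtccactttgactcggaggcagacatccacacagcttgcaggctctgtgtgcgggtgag
Cxcl15: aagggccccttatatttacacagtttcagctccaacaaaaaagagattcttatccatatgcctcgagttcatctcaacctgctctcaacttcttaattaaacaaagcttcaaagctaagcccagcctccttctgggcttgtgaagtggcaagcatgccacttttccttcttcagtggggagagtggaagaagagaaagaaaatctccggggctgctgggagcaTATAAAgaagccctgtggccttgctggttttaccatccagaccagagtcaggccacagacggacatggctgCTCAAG
Itga8: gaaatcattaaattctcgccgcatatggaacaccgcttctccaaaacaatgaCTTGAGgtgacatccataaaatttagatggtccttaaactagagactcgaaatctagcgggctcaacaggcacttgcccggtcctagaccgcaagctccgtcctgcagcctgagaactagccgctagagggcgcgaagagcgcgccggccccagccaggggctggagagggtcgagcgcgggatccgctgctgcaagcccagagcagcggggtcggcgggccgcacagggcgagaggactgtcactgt
In Sftpa1, CTCAAG began at position -166 and TATAAA at -30. In Cxcl15, TATAAA began at -27 and CTCAAG at 44. The window of Itga8 held CTCAAG on the other strand at -198 and no TATAAA, and that of Ager held neither. Of 32851 promoter windows of the same length, 15.9% held CTCAAG on either strand and 13.6% held TATAAA. These matches describe letters and are not measured binding sites.

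Over all genes, 2110 had a mean signal above 6 (11.6% of 18193), 494 were above 6 on all 8 arrays and 13156 on none. The threshold cut through a dense range of signals, with 1347 genes at means from 5.5 to 6 and 828 from 6 to 6.5. The highest mean signal belonged to Malat1, a nuclear long noncoding RNA, at 12.87 ± 0.90 (SD, n = 8). Next came Cxcl15, the lung chemokine lungkine, at 12.47 ± 1.41, with a lowest of 9.12, a median of 12.72 and a highest of 13.47. Lyz1, a lysozyme gene that mouse type 2 cells express, stood at 11.11 ± 1.96. Epas1, the hypoxia-inducible factor 2 alpha, placed here in the endothelial list, stood at 10.69 ± 1.47, and its mean in the lesions was 10.44. These 3 lung genes were all lowest on replicate 2.

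The other 21 of the 25 highest signals included many genes active in nearly every cell. Tuba1a and Tuba4a, alpha tubulins, had means of 11.59 ± 1.72 and 10.29 ± 1.42. Hmgn1, a nucleosome-binding protein, stood at 11.25 ± 1.56, and Actb, cytoplasmic actin, at 10.56 ± 1.64. Fth1, the ferritin heavy chain that stores iron, stood at 10.29 ± 2.42, Sod1, a superoxide dismutase, at 10.23 ± 1.89, and Grn, the lysosomal precursor of granulins, at 10.71 ± 0.60. Rpl13a and Rps9, proteins of the ribosome, stood at 10.87 ± 1.87 and 10.26 ± 1.36. Ahnak, Atp6ap2, Hnrnpab, Myh9 and Marveld1 lay between 10.31 and 10.66 in their means. Cntd1, a cyclin-domain protein, was even at 10.84 ± 0.37, with other probe sets at 2.33 and 6.12. In this set of 25, 19 genes had an SD above 1 over the arrays, 18 were lowest on replicate 2 and 6 were lowest on replicate 3.

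The 6 that were lowest on replicate 3 were Eif2b2, a subunit of a translation initiation factor, Tm9sf2, Synpo2l, Trpm7, an ion channel with a kinase domain, Mcm3, a subunit of the replicative helicase, and Peli1, a ubiquitin ligase. Eif2b2 had a lowest signal of 10.30, a median of 12.38 and a highest of 12.71, and Synpo2l had 7.48, 11.10 and 11.59. Synpo2l is a gene of heart and skeletal muscle. Their other probe sets were low: the means were 3.25 to 4.33 for Eif2b2, 3.07 to 4.29 for Synpo2l, 2.42 to 5.19 for Tm9sf2, 3.60 to 4.98 for Mcm3 and 2.44 to 4.63 for Peli1. Trpm7 had others from 3.05 to 5.90. For these 6 genes the high signal therefore rested on 1 probe set each. The same held for Fth1, Rpl13a, Rps9, Tuba4a, Grn, Ahnak and Marveld1, whose other probe sets had means from 2.70 to 5.89. Of the 24 genes in the set of 25 with another probe set, 11 had one with a mean above 6, among them Malat1 (up to 12.24), Lyz1 (10.54), Hmgn1 (11.12), Myh9 (9.97) and Atp6ap2 (10.39).

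Genes of type 2 cells had the highest median signal of the cell type lists. Of 15 measured genes, 9 had a mean above 6, the median of the 15 means was 7.31 against 4.40 for all genes, and all 9 had an SD above 1. Besides Cxcl15, Lyz1 and Sftpc, these were Sftpa1, Sftpb and Sftpd, the other surfactant proteins, Slc34a2, a phosphate transporter, Lpcat1, an enzyme of surfactant lipid synthesis, and Chil1, a chitinase-like protein. Sftpa1 had a lowest signal of 5.77, a median of 9.98 and a highest of 12.36, and Slc34a2 had 6.38, 8.51 and 10.54. Sftpb reached a mean of 7.10 ± 1.45 and Sftpd 7.41 ± 1.78. Abca3, the lipid transporter of lamellar bodies, stood just under the threshold at 5.69 ± 1.03. Replicate 2 had 3 of the 15 genes above 6, replicates 1 and 3 had 12 each, and the other arrays had 9 each. Napsa (4.30 ± 0.34) and Muc1 (4.72 ± 0.31), both genes of type 2 cells as well, had low signals.

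Type 1 cells gave 9 of 15 genes above 6, with a median of 6.40, and 8 of the 9 had an SD above 1. Next to Ager stood Clic5, a chloride channel protein, at 8.19 ± 2.18, Hopx, a homeodomain cofactor, at 7.51 ± 1.85, Pdpn, podoplanin, at 7.40 ± 1.24, and Akap5, an anchor of protein kinase A, at 7.24 ± 1.89. Cldn18, a tight junction claudin, stood at 7.25 ± 1.87 and Aqp5, a water channel that type 2 cells can also express, at 6.29 ± 1.30. Clic5 had a lowest signal of 4.90 on replicate 8 and 4.99 on replicate 2, a median of 8.62 and a highest of 10.55. The count of type 1 genes above 6 was 1 on replicate 2, 3 on replicate 8 and 8 to 12 on the other arrays. Replicate 8 thus had most type 2 genes above 6 and few type 1 genes above 6. The mean of the type 2 list was above that of the type 1 list on every array. It was 6.54 against 5.29 on replicate 8, 7.57 against 6.28 on replicate 4 and 5.26 against 4.64 on replicate 2. The contrast in counts therefore depended in part on the threshold.

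Airway transcripts had low means over the 8 arrays, with a single exception in each list. Of 13 genes of club cells 1 had a mean above 6, namely Aldh1a1, a retinaldehyde dehydrogenase (7.16 ± 1.68), and the defining secretoglobins were low on every array, with Scgb1a1 at 3.36 ± 0.11 and Scgb3a2 at 3.46 ± 0.56. By array, club cell genes above 6 numbered 5 on replicate 3, 3 on replicates 5 and 6 and at most 2 on the others. On replicate 3, Cbr2 had 8.16 and Nupr1 7.13, and Nupr1 had 7.48 on replicate 6. Of 16 ciliated cell genes 1 passed 6, namely Sec14l3, a lipid-binding protein, at 8.06 ± 1.21, with other probe sets at 7.79 and 7.98. Foxj1, the master regulator of motile cilia, stood at 2.35 ± 0.34. General epithelial genes were mixed: 4 of 13 had a mean above 6, which were Dsp (desmoplakin, 7.86 ± 0.61), Epcam (6.41 ± 1.76), Cdh1 (E-cadherin, 6.16 ± 0.85) and Krt18 (6.06 ± 1.21), while Nkx2-1 itself stood at 3.43 ± 0.21.

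Endothelial transcripts were present but uneven between genes. Of 23 measured, 5 had a mean above 6: Epas1, Tek, the angiopoietin receptor (8.13 ± 1.43), Calcrl, a receptor for calcitonin-family peptides (7.69 ± 1.43), Ptprb, a vascular phosphatase (7.04 ± 1.08), and Esam, an adhesion molecule (6.23 ± 0.46). Cdh5, VE-cadherin, stood at 5.19 ± 1.01 and Tie1 at 3.28 ± 0.26, and the median of the list was 5.20. Among genes of alveolar capillary aerocytes, Cd36, a fatty acid transporter, was the only one of 8 above 6, with a lowest signal of 6.04, a median of 8.89 and a highest of 10.63. Car4, carbonic anhydrase 4, a defining gene of those cells, had 3.61, 5.06 and 9.68, and was above 6 on replicates 1 and 3. Endothelial genes above 6 numbered 10 on replicates 1 and 3 and 2 on replicates 2 and 8.

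Fibroblast transcripts were present on most arrays. Of 17 alveolar fibroblast genes, 9 had a mean above 6, 5 of these with an SD above 1. After Itga8 came Lpl, lipoprotein lipase (7.89 ± 1.40, also a gene of alveolar macrophages), Npnt, nephronectin, the matrix ligand of integrin alpha 8 (7.75 ± 1.00), Limch1 (7.22 ± 0.89), and Inmt, a methyltransferase (7.20 ± 1.16). Npnt was far higher on replicate 3 (10.05) than its median of 7.51. Pdgfra, the receptor of the platelet-derived growth factor A chain, stood at 6.65 ± 0.85, and Tcf21, a transcription factor of lipofibroblasts, at 3.87 ± 0.97. Of 14 matrix fibroblast genes 8 were above 6, among them Sparc (8.46 ± 1.64), fibronectin gene Fn1 (7.18 ± 0.59), collagen gene Col3a1 (7.15 ± 1.76) and Mgp, matrix Gla protein (7.07 ± 1.75). Smooth muscle was low apart from Mylk, myosin light chain kinase (8.47 ± 1.60), which endothelial cells also express: 1 of 11 genes had a mean above 6, and Acta2, smooth muscle actin, stood at 4.65 ± 0.63. Pericyte genes passed in 1 of 10 and mesothelial genes in 0 of 6.

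Immune lists had few genes above 6. Of 17 alveolar macrophage genes 5 had a mean above 6: Lyz2, lysozyme M, which type 2 cells share (9.90 ± 2.22), Lpl, the chemokine gene Ccl6 (7.31 ± 1.15), Chil3, the lectin Ym1 (7.16 ± 1.41), and Atp6v0d2, a proton pump subunit (6.39 ± 1.22). Marco, a scavenger receptor of these cells, stood at 4.31 ± 0.47 and Siglecf at 3.22 ± 0.50. Of 15 monocyte, macrophage and dendritic cell genes 3 had a mean above 6, with a list median of 5.34, and all 3 were class II genes of antigen presentation or the invariant chain: H2-Aa, H2-Eb1 (6.42 ± 1.10) and Cd74. H2-Aa was the highest, with a lowest signal of 7.50, a median of 9.36 and a highest of 10.66, and Cd74, the invariant chain, had 5.21, 6.24 and 9.16. Csf1r, the receptor of macrophage colony-stimulating factor, ranged from 2.67 on replicate 4 to 8.04 on replicate 3. None of 11 neutrophil genes had a mean above 6, and S100a8 stood at 2.75 ± 0.19; none of 8 mast cell and basophil genes and none of 6 platelet genes did. T and natural killer cells gave 1 of 15, the chemokine gene Ccl5 (6.11 ± 0.98), with Cd3e at 3.87 ± 0.50. Igha, the constant region of immunoglobulin A, was the only B and plasma cell gene of 10 above 6 (10.11 ± 0.77), but its other probe sets had means of 5.21 and 5.60, and Jchain, the joining chain of secreted immunoglobulin A, stood at 2.71 ± 0.74. Of 6 measured red cell genes 2 passed, Hbb-b2 (6.24 ± 1.45) and Bpgm (6.09 ± 1.24).

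**Figure D2:**
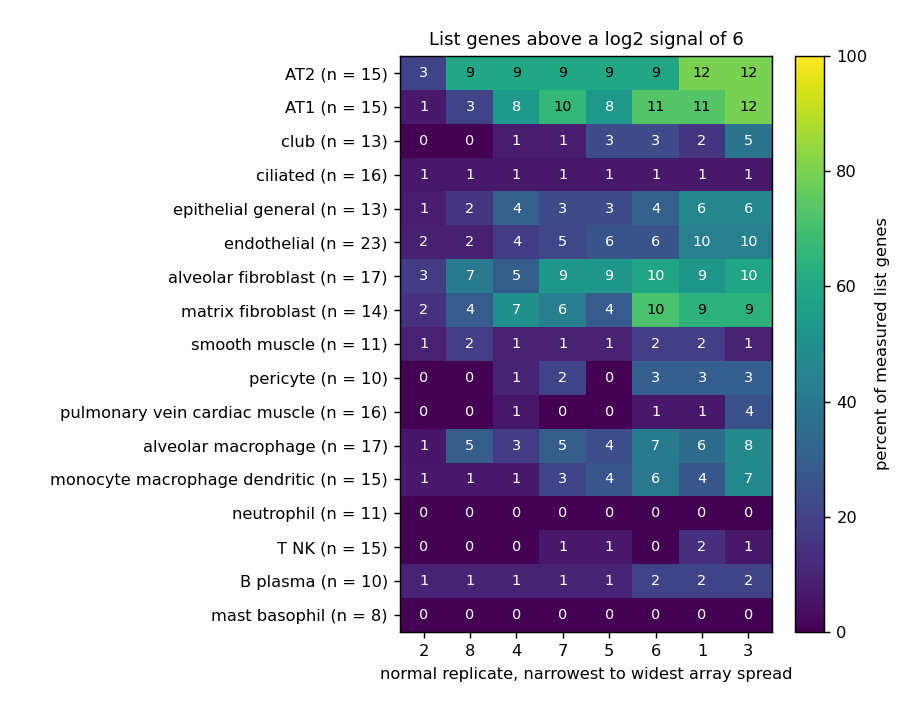
Number of genes of each cell type list above a log2 signal of 6 (printed) and the percent of the measured genes that this is (color scale) on each normal array, ordered along the x axis from the narrowest to the widest spread. Type 2 genes numbered 3 on replicate 2, 9 to 12 elsewhere, neutrophil and mast cell genes 0 on every array, and cardiac muscle genes 4 on replicate 3 and at most 1 on the others.

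Cardiac muscle genes stood apart on 1 array. On replicate 3, Myh6, the alpha myosin heavy chain of atrial and adult mouse heart muscle, had a signal of 9.67, against at most 3.30 on the other normal arrays and 2.14 to 2.91 on the lesions. Tnnt2, cardiac troponin T, had 8.04 there and at most 3.89 on the other normal arrays, and Actc1, cardiac actin, had 6.88 and at most 3.79. Tnnc1 (7.37), Tnni3 (5.54) and Myl7 (4.64), troponin and myosin genes of heart, were also highest there, and Nppa, the atrial natriuretic peptide gene, had a mean of 2.82 ± 0.42 over the 8 arrays. Of 16 measured cardiac muscle genes, 8 had their highest normal signal on replicate 3 and 6 exceeded all 14 other arrays by at least 1, where 22.3% and 1.32% of all genes did so. The list was chosen with earlier results of these data known, so these counts are a description and not a test. A mean over the 8 arrays hides these genes, since none of the 16 had a mean above 6.

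**Figure D3:**
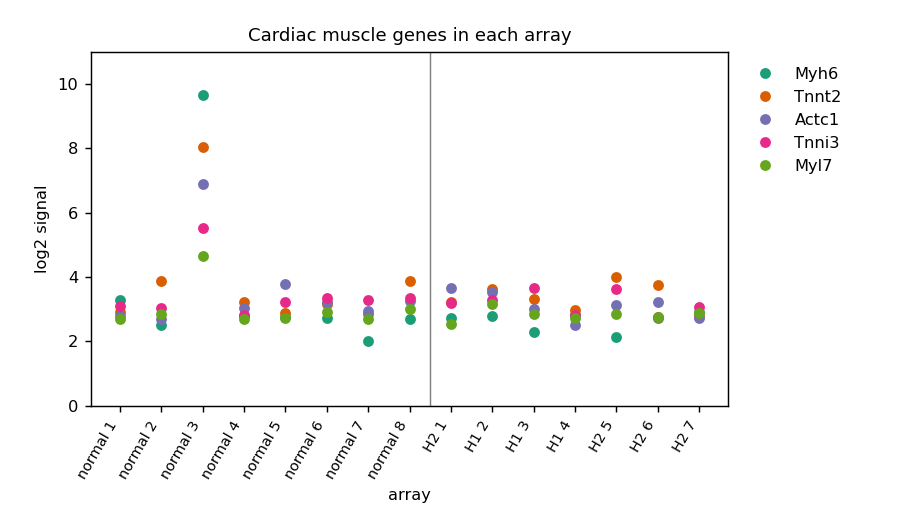
Log2 signal (y axis) of 5 cardiac muscle genes on each of the 8 normal and 7 lesion arrays (x axis; H1 and H2 are the lesion groups of the labels). Normal replicate 3 had 4.64 to 9.67 for these genes, and Myh6 was at or below 3.30 on every other array.

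Genes at least 2 above each of the other 7 normal arrays, and above 6, were counted in the same way after the values had been seen. There were 85 on replicate 3, 21 on replicate 4, 6 on replicate 1, 3 on replicate 6, 2 on replicate 8, 1 on replicate 2 and 0 on replicates 5 and 7. Besides Myh6, Tnnt2 and Actc1, replicate 3 had Ctsz, the lysosomal protease cathepsin Z, at 9.44 (at most 5.32 elsewhere among the normal arrays), H2-DMb2, a class II chaperone, at 8.45 (4.70), and F13a1, the A chain of clotting factor XIII, found in macrophages, at 7.46 (4.46). Replicate 4 had Lrrc19 at 9.69 (6.93), Dmp1, a matrix protein of bone, at 7.23 (3.96), Tnn, tenascin N, at 7.02 (4.05), and Svs2, a seminal vesicle protein, at 7.24 (4.64).

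Housekeeping and stress genes showed how far the arrays differed in genes of every cell. Of 8 measured housekeeping genes 5 had a mean above 6, and all 5 had an SD above 1: Actb, Tpt1 (10.23 ± 1.60), B2m (from 6.00 to 12.49, SD 2.46), Eef1a1 (8.94 ± 1.75) and Hprt (6.46 ± 1.09). Of 46 ribosomal protein genes 28 were above 6 (60.9%), 25 of these with an SD above 1 and a median SD of 1.41. Immediate early genes, which respond within minutes to handling and growth signals, were above 6 in 5 of 13, led by Dusp1 (7.79 ± 0.69), Klf4 (7.77 ± 1.00) and Egr1 (7.32 ± 0.81), with Fos at 6.01 ± 0.46. Egr1 was highest on replicate 1 (8.95) and lowest on replicate 3 (6.57). Heat shock genes were above 6 in 4 of 8, led by Hspa8 (9.32 ± 1.23), while the strongly inducible Hspa1a stood at 4.61 ± 0.59. None of 9 interferon-response genes and 1 of 9 proliferation genes, Mcm6 (6.40 ± 1.28), had a mean above 6, and of 14 circadian genes 1 did, Nr1d2 (6.12 ± 0.86).

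Xist, the RNA that coats the inactive X chromosome of females, had a lowest signal of 6.01 on replicate 8, a median of 9.03 and a highest of 10.64. The Y-linked genes Eif2s3y (2.49 to 4.13), Kdm5d (2.78 to 4.70) and Uty (2.39 to 3.68) were low on all 8 arrays, so the levels of sex-linked genes did not separate the arrays into sexes.

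Variation between the normal arrays was wide for expressed genes. Among the 2110 genes with a mean above 6, the median SD over the 8 arrays was 0.92, with quartiles of 0.57 and 1.31 and a range from 0.13 to 2.93, and 939 genes (44.5%) had an SD above 1. Over the 7 lesion arrays the same genes had a median SD of 0.71 and 401 were above 1, and 1507 of 2110 (71.4%) had the larger SD in the normal arrays. The genes were chosen by their level in the normal arrays, so this is a description. Most of the variation ran along 1 direction: the first principal component of the 2110 genes held 71.6% of the variance, with scores of -0.64 for replicate 2 and 0.52 for replicate 3 at its ends, which are also the arrays with the narrowest and widest spread. The second held 8.25% and set replicate 4 (-0.90) apart. With array spread 1689 genes went up and 421 went down by the sign of a straight-line slope; of those with an SD above 1 these were 853 and 86. After the slope was removed the median residual SD was 0.55 and 186 genes remained above 1.

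The most variable gene was Cyb5r3, a reductase of cytochrome b5, with an SD of 2.93, a lowest signal of 3.01, a median of 8.52 and a highest of 10.99. Slc38a10, an amino acid transporter, followed with an SD of 2.88 and values of 2.43, 7.39 and 10.23. Both were low on replicates 2 and 4, and so was Sf3b2, a splicing factor (3.03 and 3.14). On replicates 2, 4 and 8, Khdrbs1, an RNA-binding protein, had 4.44, 4.21 and 4.53. Ywhab, a 14-3-3 protein, had 3.68, 4.91 and 4.96 and Mndal had 3.25, 3.95 and 3.66 on those arrays. Nnt, the mitochondrial transhydrogenase, was low on replicate 4 (2.44) against a median of 7.25, and its value on replicate 2 was 5.83. The other probe sets of Cyb5r3, with means of 3.17 to 4.82, and of Slc38a10, with means of 3.16 to 5.89, had SDs of at most 0.60 and 0.68. The low values of Slc38a10 and Sf3b2 on replicate 2 (3.03) were shared exactly by 97 genes of that array.

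Sftpc ranked among the 25 most variable genes, at an SD of 2.49. Lyz2, of the alveolar macrophage list, had a lowest signal of 5.32, a median of 10.31 and a highest of 12.66. B2m, the light chain of class I molecules, had an SD of 2.46 with values from 6.00 to 12.49, and H2-K1, a class I heavy chain, had 2.36 with values from 3.21 to 11.32. Ctss, the lysosomal protease cathepsin S of antigen-presenting cells, ranged from 4.52 to 11.31, and Ifitm3, an interferon-induced membrane protein, from 3.57 to 10.72. All 6 were lowest on replicate 2 and highest on replicate 3. The second probe set of B2m varied as much (SD 2.37), while those of H2-K1 reached 1.16 at most.

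Further genes that went up with array spread were Rps28 of the small ribosomal subunit (SD 2.53), Atpif1, the inhibitor of the mitochondrial ATP synthase (2.49), Tubb2a, a beta tubulin (2.32), and Fth1 (2.42), each lowest on replicate 2. Rps28 had 3.99 there, a median of 10.15 and 11.87 on replicate 3, and its other 2 probe sets had SDs of 2.42 and 2.72. Other probe sets of Atpif1, Tubb2a and Fth1 had SDs of at most 0.77, 0.97 and 0.79. Without replicate 2 the SD of Rps28 was 1.04, that of Atpif1 1.15, that of Sftpc 1.53 and that of Ager 1.28, and 11 of the 25 most variable genes were still among the top 25. Utrn, utrophin, Klf9, a Krüppel-like factor, Cdc42, a small GTPase, Ddx3x, an RNA helicase, and Slc9a3r2, a scaffold protein, had SDs of 2.26 to 2.39. Of the 25, 17 were lowest on replicate 2 and 12 highest on replicate 3.

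Only 4 of the 25 ran the other way, lowest on replicate 3. Myod1, the myogenic transcription factor, had a highest signal of 10.15 on replicate 2, a median of 9.34 and a lowest of 3.21 on replicate 3. Myh1, a fast skeletal myosin heavy chain, had 8.71 on replicate 2, 2.23 on replicate 3 and 4.17 on replicate 1. Ywhag, a 14-3-3 protein, went from 9.01 to 2.35 and P2rx7, an ATP-gated channel, from 9.29 to 2.76 between the same arrays. The second probe set of Myod1 had a mean of 5.19 ± 0.52 and those of P2rx7 4.32 and 4.33. Other skeletal muscle genes were low: of 11 measured, Myh1 and Tnnc2 (6.15 ± 0.59) had means above 6, while Acta1, skeletal actin, stood at 3.08 ± 0.18 and Ckm, muscle creatine kinase, at 4.32 ± 0.44. Of the 22 genes among the 25 with another probe set, 14 had one with an SD above 1, and of these 4 genes Myh1 alone did (1.02).

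**Figure D4:**
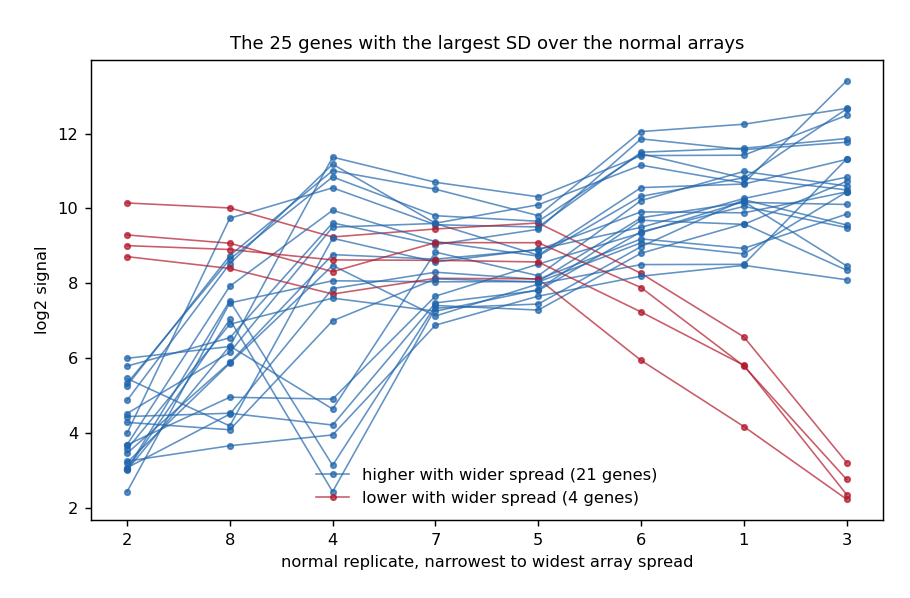
Log2 signal (y axis) of the 25 genes with the largest SD among those with a mean above 6, 1 line a gene, on the normal arrays ordered by spread (x axis, replicate numbers). Blue lines are the 21 genes that went up with array spread and red lines the 4 that went down (Myod1, Myh1, Ywhag and P2rx7); Cyb5r3, Slc38a10 and Sf3b2 are among the blue lines that dip on replicate 4.

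The most even genes with a mean above 6 were Cotl1, an actin-binding protein, with values from 6.02 to 6.48 (SD 0.13), and Dcbld2, a membrane receptor, from 6.77 to 7.15 (SD 0.13). Hnrnpul1 (0.14), Hipk1 (0.14), Fem1a, Rusc1, Extl3, Cant1 and Gskip followed. Fbxw11, a ubiquitin ligase subunit, was even at a higher level, from 8.20 to 8.65 with a mean of 8.43. Of the 494 genes above 6 on every array, 64 had an SD under 0.3. The reference genes Actb and B2m, with SDs of 1.64 and 2.46, were less even than the median gene above 6.

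For 12 genes, 1 for each cell type, the signal was compared with array spread over the 8 normal arrays by an exact two-sided permutation test, with Benjamini-Hochberg adjustment over the 12. Pearson's r was 0.932 for Ager (exact p = 0.000223, adjusted 0.00134), and Spearman's rho was 0.952 (adjusted p = 0.00685). For Pecam1 r was 0.919 (exact p = 0.000174, adjusted 0.00134) and rho 0.976 (adjusted p = 0.00476). These 2 genes passed by both measures, and without replicates 1 and 3, the arrays farthest from the median spread, r was 0.908 and 0.953. Sftpc (r = 0.863, adjusted exact p = 0.0152), Cd3e (0.765, adjusted exact p = 0.0293) and Acta2, which went down (-0.870, adjusted exact p = 0.0222), passed by r and not by rho, whose adjusted exact p was 0.110, 0.119 and 0.110. Without replicates 1 and 3 their r was 0.837, 0.740 and -0.782. Signals near 4 are near background, and the means of Pecam1, Cd3e and Acta2 were 4.19, 3.87 and 4.65. Itga8 did not pass (r = 0.635, adjusted exact p = 0.158), but its rho of 0.738 equalled that of Sftpc and its r without replicates 1 and 3 was 0.832. Chil3 did not pass either (r = 0.590, adjusted exact p = 0.189), with an r of 0.874 without those arrays. Cd79a, Foxj1, Scgb1a1, S100a8 and Hba-a1, a hemoglobin gene, did not pass. Without replicate 3 the number past the threshold by r was 3 in place of 5. The share of all genes that would pass was not computed, so these counts have no background beside them. The spread of an array includes these genes among 18193, and both follow the same array. Of the 2110 genes with a mean above 6, 1689 went up with array spread by the sign of a slope. A rise with spread is thus not particular to these genes, and the p-values do not set them apart from other genes.

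Against the 7 lesions, the normal arrays differed in few single genes. By limma with Benjamini-Hochberg adjustment over 18193 genes, 2 were higher in normal cells (0.011% of genes tested) and 37 lower (0.203%), 39 in all (0.214%). At an unadjusted p under 0.05 the numbers were 904 (4.97%) and 1356 (7.45%). Among the 2110 genes with a mean above 6 in the normal arrays 9 were called, 1 higher and 8 lower. These genes, and the probe set of each gene, were chosen by their level in the normal arrays. That choice favours genes higher in normal cells, so differences in that direction may be too large. The groups did not overlap for 9 of the 2110, all lower in normal cells, where 0.159% of all genes tested were lower without overlap, 0.0385% were higher and 0.198% were either. The median difference over all genes was 0.07.

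Among the genes chosen by a mean above 6 in the normal arrays, Itga8 was the only called gene higher in normal cells. Its lesion signals had a lowest of 4.28, a median of 5.88 and a highest of 7.62, so that the highest lesion lay above the lowest normal array (7.36). The difference, normal minus lesion, was 2.46 ± 0.42 (SE; limma, adjusted p = 0.0326), and it was 1.80 for the second probe set. The call held in 8 of 15 fits that left out 1 array, with adjusted p from 0.00281 to 0.0743, and was lost without normal replicates 4, 5 or 7, H1 replicate 3 or H2 replicates 5, 6 or 7. Of the 17 alveolar fibroblast genes Itga8 was the only one called, and their median difference was 0.54. Of all genes tested, 0.011% were called higher in normal cells. The other gene called higher, Ankrd33b, had a mean of 4.77 against 3.19.

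The called genes that were lower in normal cells included Slc12a2, the sodium-potassium-chloride cotransporter, for which the groups did not overlap. It had a lowest signal of 5.15, a median of 7.52 and a highest of 8.69 in normal cells, and 8.71, 9.75 and 10.31 in lesions. The difference was -2.30 ± 0.44 (SE; limma, adjusted p = 0.0398). Acsl4, an acyl-CoA synthetase for arachidonic acid, differed by -2.35 ± 0.46 (limma, adjusted p = 0.0440) and Rai14, an actin-bundling protein, by -2.05 ± 0.37 (limma, adjusted p = 0.0326). Cstb, the protease inhibitor cystatin B, Dhx40, Rnf20, a ubiquitin ligase for histone H2B, and Zfp266 differed by -1.90, -1.62, -1.43 and -1.27. These 7 calls held in 3 to 5 of the 15 fits that left out 1 array. Among called genes with a lower mean, the elastin gene Eln stood at 5.48 ± 0.81 in normal cells (difference -2.83) and Rrm2, a ribonucleotide reductase subunit, at 4.24 (difference -2.26).

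Several of the largest differences among genes with a mean above 6 in the normal arrays did not pass the adjusted threshold. The choice of genes by the normal arrays favours those higher in normal cells. Cyp4b1, a lung cytochrome P450, had a lowest normal signal of 4.82, a median of 7.28 and a highest of 8.96, against 2.41, 4.22 and 5.85 in lesions; the difference was 2.87 ± 0.62 (SE; limma, adjusted p = 0.0754). Dpep1, a membrane dipeptidase, differed by 2.53 ± 0.56 (limma, adjusted p = 0.0776), Aldh1a1 by 2.07 ± 0.62 (0.186) and Hpgd, which breaks down prostaglandins, by 1.99 ± 0.61 (0.194). Cyp4b1 passed the threshold in 6 of 10 other settings, Dpep1 in 7 and Aldh1a1 in 2. Calcrl, Hbb-b2, Camk1d, Birc6, Efemp1 and Pcolce2 were next, with no adjusted limma p under 0.05. In the other direction, Ctsc, a lysosomal protease, differed by -2.63, H2az1, a histone variant, by -2.53 and Scd1, a fatty acid desaturase, by -2.48, with adjusted limma p of 0.135, 0.127 and 0.0722. Scd1 passed in 7 of 10 other settings, Ctsc in 1 and H2az1 in 0. Nnt differed by -2.34 with no overlap between the groups and an adjusted limma p of 0.176. Elovl1, Clu, Nme2 and Ctsh completed the 10 largest of that direction among genes with a mean above 6 in the normal arrays.

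Sftpc (difference -1.41 ± 0.93), Ager (-0.66 ± 0.75) and Pecam1 (0.32 ± 0.49) had adjusted limma p of 0.551, 0.751 and 0.820. None of the 15 type 2 genes was called, although their median difference was -1.41, and none of the 15 type 1 or 23 endothelial genes was, with medians of 0.28 and 0.39. At an unadjusted limma p under 0.05, 9 type 2 genes were lower and 0 higher in normal cells. For type 1 genes 3 were higher and 1 lower, and for endothelial genes 7 were higher and 0 lower. Of all genes tested, 4.97% were higher and 7.45% lower at that threshold. Matrix fibroblast genes had a median difference of -0.61 with 1 of 14 called (Eln), and proliferation genes had 1 of 9 called (Rrm2). Both were called lower in normal cells, as were 0.203% of all genes tested. The number of calls turned on single arrays. For genes higher in normal cells it was 5 without normal replicate 2, 1 without normal replicate 8 or H1 replicate 4, 7 without H1 replicate 2, and 0 without normal replicates 4, 5 or 7, H1 replicate 3 or H2 replicates 5, 6 or 7. For genes lower in normal cells it was 176 without H1 replicate 2, 98 without normal replicate 3, 19 without H2 replicate 1, and 5 to 16 without any other array except normal replicates 1 and 6, whose omission gave 30 and 43. With array spread as a covariate in the limma fit, 47 genes were higher and 36 lower.

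**Figure D5:**
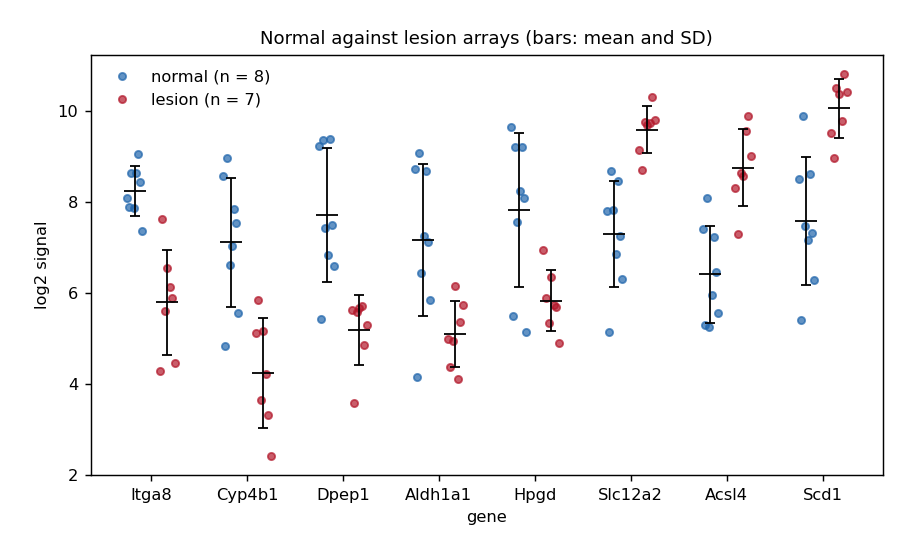
Log2 signal (y axis) of 8 genes (x axis) on the 8 normal (blue) and 7 lesion (red) arrays, each point 1 array and each bar the mean and SD of a group. The groups did not overlap for Slc12a2, and for Itga8 1 lesion at 7.62 lay above the lowest normal array at 7.36.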

How the data were processed

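Per the labels' protocols, the PicoPure kit gave the RNA of the 15 microdissected samples, and WT-Ovation One-Direct reagents amplified it. The authors deposited log2 signals per probe set, made with the affy package and RMA per the submitters' processing notes, with no version given. RMA equalises probe intensities and not probe set values, so arrays can differ in spread. The array annotation named 1 gene for 34945 of 45101 probe sets, several for 932 and none for 9160; 64 controls were left out of gene results.

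Means and SDs were taken over the 8 normal arrays. Lesions were compared with limma 3.58.1 in R 4.3.3 (lmFit, eBayes, Benjamini-Hochberg, called at an adjusted p under 0.05), a script tested on simulated data. The genes named were the 25 highest and 25 most variable, the 10 most even, up to 4 per list and all genes called above a mean of 6. The 10 largest differences a direction were also named, among genes with a mean above 6 in the normal arrays. Predicted and clone names were passed over. The members and the 34 lists (371 of 406 genes measured) were chosen with earlier results of these data known. Alternatives were median centring, quantile normalization, other probe set and level rules, other fits and leaving out arrays. The number of arrays limits the precision.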

Additional observations from a re-analysis of the deposited data

Results flagged for a closer look

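Single arrays that stood apart were sought in 228 sets of 8 normal values by Dixon's gap test, and 32 sets had a highest or lowest array with a gap past the critical value for 8 arrays, where chance alone gives about 1 in 20 for independent sets. These sets were not independent and some were chosen for a large SD over the same arrays, so the number is a description. Replicate 2 was the lowest array for 11 genes: Malat1 (10.69), Cxcl15 (9.12), Hnrnpab (7.58), Marveld1 (5.93), Rps9 (7.25), Rps28 (3.99), Atpif1 (2.43), Tubb2a (3.68), Cdh1 (4.25), Elovl1 (2.99) and Cstb (6.12). Replicate 3 was the highest for 10: Myh6 (9.67), Tnnt2 (8.04), Actc1 (6.88), Tnni3 (5.54), Myl7 (4.64), Tnnc1 (7.37), Npnt (10.05), Krt19 (5.65), Cd74 (9.16) and Cd3e (5.01). The first 6 of these are cardiac muscle genes, and all of them but Tnnc1 were added to the sets after their values had been seen.

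Replicate 3 was also the lowest for Eif2b2 (10.30), Synpo2l (7.48), Mcm3 (7.80), Peli1 (6.51) and the mean of the hybridisation controls (12.07). Replicate 1 was the highest for Dsp (9.24), Mb, myoglobin (5.98), and Scg5, a secretory granule protein (4.62). Replicate 4 was the highest for Gp9, a platelet glycoprotein (6.37), and the lowest for Nnt (2.44). Replicate 6 was the highest for Rnf20 (7.29).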

How the results depend on the processing

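Median centring of each array moved no count by more than 1.5 times. The number of genes with a mean above 6 was 748 with the mean of all probe sets of a gene, 5605 at a level of 5 and 784 at a level of 7. With the mean of all probe sets 7 of the 25 highest genes were shared. Genes with an SD above 1 numbered 287 with the mean of all probe sets, 611 without the 2 narrowest arrays, 1424 at a level of 5, 493 at a level of 7 and 186 as residuals on array spread, whose median was 0.55. Of the 25 most variable genes 12 were shared after repeated quantile normalization, 8 with the mean of all probe sets, 8 without the 2 narrowest arrays, 5 by the median absolute deviation and 7 by the residual SD.

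Against the lesions, genes called higher in normal cells by limma numbered 8 after quantile normalization, 15 without the 2 narrowest arrays, 14 with array weights, 4 among genes above 5 and 47 with array spread as a covariate. Genes called lower numbered 61 with the mean of all probe sets, 12 without the 2 narrowest arrays, 175 with array weights and 79 among genes above 5. With the replicate number as a block, 3 were higher and 71 lower. Same-numbered arrays deviated from their group means with r from -0.355 to 0.532, and 2 of 7 correlated best with their own number. Most variation between the normal arrays ran along 1 direction, so these correlations cannot tell whether same-numbered samples shared an animal.

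Leaving out 1 array at a time gave 0 to 7 genes called higher and 5 to 176 called lower, 1950 to 2267 genes above 6, 21 to 24 of the 25 highest and 11 to 25 of the 25 most variable, 720 to 1021 genes with an SD above 1, a median SD of 0.81 to 0.97, and 3 to 5 of 12 genes past the threshold against spread. Values near 4 are near background and say little about low transcripts, and many of them are exactly equal between genes.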
